A study of Homo sapiens with 12 samples.

Results

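HEK 293T cells, which descend from human embryonic kidney, carry the SV40 large T antigen and are easily transduced, received lentivirus with 1 of 2 short hairpin RNAs (shRNAs) against the same gene, SIDT2. The 4 libraries of shRNA-D were compared with the 4 libraries of shRNA-B, which makes 8 of the 12 libraries of the series. The other 4 libraries, with a scramble hairpin, took no part in any test, and their levels are printed beside the results as background. Poly(A) RNA was taken from all groups 72 h after transduction, and the stated purpose of the series was to find transcripts regulated through lysosomal RNA uptake by SIDT2. The members of the comparison were all 25042 genes that passed a filter on low counts, and the libraries were matched by their replicate number. The libraries are called biological replicates in the description of the series, with no word on whether each came from its own culture. With this matching, p-values refer to how far the difference between the hairpins varied among the numbered pairs of libraries. That spread may be technical.

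SIDT2 is a membrane protein of lysosomes and late endosomes that is known for carrying RNA into the lysosome, where ribonucleases such as RNASET2 break it down. An shRNA is cut in the cell into a small guide RNA that Argonaute proteins load. The guide directs the loss of a fully matched target, and a guide is also known to lower other transcripts that pair only with its short seed near the 5′ end, mostly in the 3′ UTR. Several hairpins against 1 gene are therefore commonly used side by side in knockdown work.

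Both hairpins left SIDT2 at the same level within the spread between libraries. In CPM, counts scaled to TMM-adjusted library size, SIDT2 stood at 6.65, 8.29, 5.79 and 6.80 in replicates 1 to 4 of shRNA-B and at 5.53, 7.24, 7.61 and 7.61 in those of shRNA-D. The groups overlapped fully, and both lay well under the scramble mean of 20.2 CPM. The fitted difference, shRNA-D minus shRNA-B, was 0.02 ± 0.11 on the log2 scale (SE), with a 95% interval of -0.22 to 0.26 (quasi-likelihood test of edgeR, Benjamini-Hochberg adjusted p = 0.940). SIDT1, the close relative of SIDT2, was scarce, at 0.557 to 1.05 CPM with shRNA-B and 0.828 to 1.17 CPM with shRNA-D (log2 difference 0.49 ± 0.19, adjusted p = 0.107). RNASET2 (-0.05 ± 0.06, adjusted p = 0.673) and the lysosomal membrane glycoproteins LAMP1 (-0.02 ± 0.06, adjusted p = 0.873) and LAMP2 (0.04 ± 0.06, adjusted p = 0.721) did not pass the test either.

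Library totals lay between 68737402 and 96850306 estimated counts, and transcripts of the mitochondrial genome took 5.87% to 7.34% of them with shRNA-B and 6.01% to 7.25% with shRNA-D. All 15 HEK 293 line genes on a fixed list were present, at a summed 2096 to 2207 CPM with shRNA-B and 1866 to 2114 CPM with shRNA-D. Of 14 leukocyte genes 12 were under 1 CPM and MS4A1 was at 0, of 8 hepatocyte genes 7 were under 1 CPM and APOB was at 0, and all 8 endothelial genes were under 1 CPM. The summed leukocyte level was 3.22 to 6.22 CPM with shRNA-B and 3.18 to 5.83 CPM with shRNA-D, and the hepatocyte sums (1.75 to 3.05 and 2.43 to 3.09 CPM) and endothelial sums (0.434 to 0.763 and 0.675 to 1.19 CPM) were as low. The numbered pairs did not behave alike: across 10453 genes whose mean reached 10 CPM, which are not independent replicates and share their libraries, the log2 ratios of pairs 1, 3 and 4 correlated with r = 0.736 to 0.851, whereas pair 2 correlated with the others at r = 0.374 to 0.530.

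Although SIDT2 did not differ, many other genes did. With shRNA-D, 1571 genes were higher and 1821 lower than with shRNA-B at an adjusted p under 0.05, which is 6.27% and 7.27% of the genes tested. Most differences were small: the median log2 difference was 0.42 among the higher and -0.28 among the lower genes. Differences over 2-fold numbered 96 on the higher and 26 on the lower side, and in 472 higher and 703 lower genes the 4 libraries of each hairpin did not overlap and all 4 pairs moved the same way. Among the genes whose mean reached 10 CPM, 8.41% were higher and 16.0% lower, and these shares are set beside the gene lists as background.

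The number of calls depends on the pairing and on the scale. When the fit ignored the replicate pairing (no block), it called 64 higher and 44 lower genes, all of them among the 3392 called with the block. Leaving out pair 2 gave 2152 and 2394, leaving out pair 1 gave 1016 and 1047, leaving out pair 3 gave 1381 and 893, and leaving out pair 4 gave 887 and 1307. Scaling by the upper quartile gave 2084 higher and 1161 lower, and a filter at a mean of 1 CPM gave 1951 and 1431, so the balance between the sides is not fixed by these data.

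**Figure D1:**
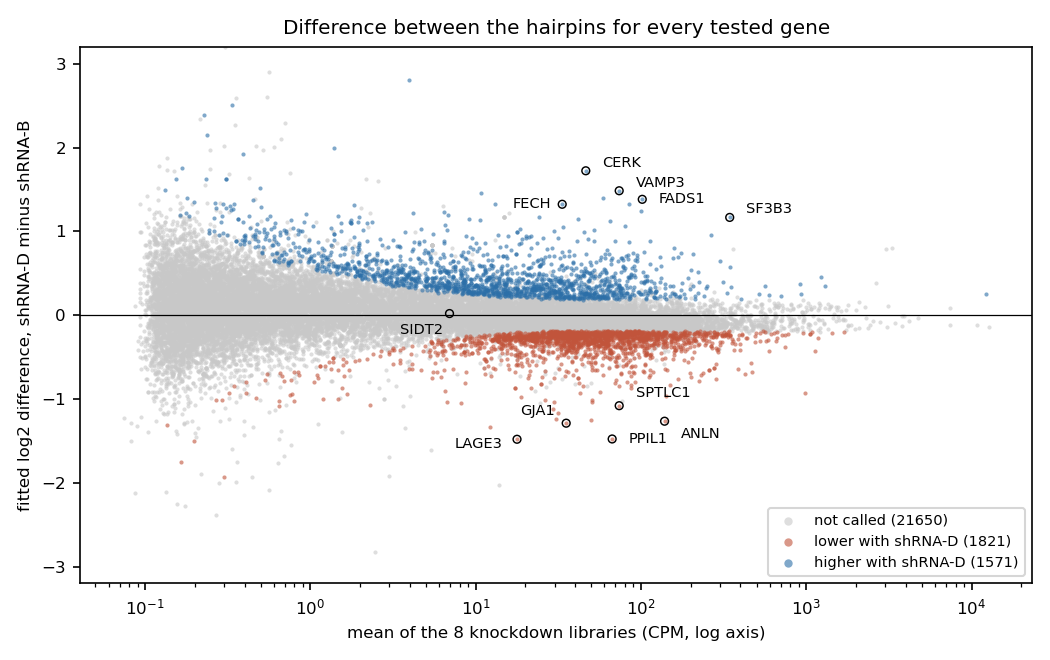
Mean level of each tested gene over the 8 knockdown libraries (CPM, log axis) against the fitted log2 difference, shRNA-D minus shRNA-B; grey points were not called, blue points were higher and red points lower with shRNA-D. SIDT2 lies on the line of no difference, and the other labelled genes, among them CERK, VAMP3 and PPIL1, lie more than 1 log2 unit from it; a few genes beyond the vertical range are not drawn.

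What the genes on either side share in sequence was described with 7-base words in their 3′ UTRs. The 12354 tested genes that reached a mean of 1 CPM and have a 3′ UTR in GENCODE release 29 (GRCh38) were searched on the sense strand for 13944 words, each carried by at least 200 genes. The word GTCAACA had the largest shift toward higher levels with shRNA-D: its 833 carriers had a median log2 difference of 0.13 against -0.05 in the other genes. TACTACA had the largest shift toward lower levels, with a median of -0.12 in 919 carriers against -0.04 in the others. Both words also occur in the coding sequence of SIDT2 itself, and the 2 words cannot overlap each other. Of the words searched, 3177 occur somewhere in the whole SIDT2 transcript of 4406 bases, UTRs included. The words were ranked on the same differences that they describe, so no test is given. Neither hairpin's sequence was in the sources used here, and whether either word pairs with a guide was not tested.

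The stretches of the SIDT2 transcript ENST00000324225.8 that hold the words are shown first, since both hairpins target this gene. Stretches of the 3′ UTR follow for some of the word carriers among the 15 genes furthest apart on each side. Other genes of these sets, such as VAMP3 and GJA1, carry neither word and have no stretch to show. Capitals mark the word. All are transcript sequence from GENCODE release 29, 5′ to 3′.
SIDT2 position 658: cacctacgtggacgagGTCAACAgc
SIDT2 position 673: ggtcaacagcgagctgGTCAACAtc
SIDT2 position 949: gtccaccctgtcaccaGTCAACAcc
SIDT2 position 1984: gaatcaggacatctgcTACTACAac
CERK position 1871: agaagaaaacccttttGTCAACAat
CERK position 2000: cttaggttttaacgatGTCAACAgt
FADS1 position 3578: acccatggagaggtttGTCAACAca
FADS1 position 3610: ggaaggttagaggtttGTCAACAaa
FADS1 position 3640: atggaaggttaggtttGTCAACAca
FADS1 position 3672: ggaagattagaggtttGTCAACAca
FECH position 2324: agaattattttataaaGTCAACAat
PPIL1 position 999: tcaataggtgactactTACTACAca
C6orf120 position 2345: gcacaatgataacttgTACTACAta
C6orf120 position 2366: catacttgatctgaatTACTACAga
TGFBR3 position 5081: acttatagctatatttTACTACAaa
TGFBR3 position 5661: ctacttttataacgtgTACTACAag

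Positions count from the first base of the transcript to the first base of the word. In GRCh38 the SIDT2 words lie on the plus strand at chr11:117179390-117179396, chr11:117179405-117179411 and chr11:117181919-117181925 for GTCAACA and at chr11:117189985-117189991 for TACTACA, all in coding exons. The CERK words lie in the 3′ UTR on the minus strand at chr22:46686984-46686990 and chr22:46686855-46686861, the first FADS1 word at chr11:61800566-61800572 and the PPIL1 word at chr6:36855561-36855567, both on the minus strand. FADS1 carried GTCAACA 4 times within a short stretch in which the flanking bases are also alike.

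Genes with GTCAACA and without TACTACA in the 3′ UTR numbered 700, and 37.0% of them were higher and 4.14% lower with shRNA-D. Genes with TACTACA and without GTCAACA numbered 786, of which 4.2% were higher and 27.2% lower. The 10735 genes with neither word divided into 8.76% higher and 13.1% lower, against 10.2% and 13.5% of all searched genes, and the 133 genes with both into 22.6% and 15%. Read the other way, GTCAACA was present in 22.9% of the 1262 searched genes that were higher and in 58.3% of the 36 that were over 2-fold higher, against 6.74% of all searched genes. TACTACA was present in 14.1% of the 1665 lower genes and in 46.7% of the 15 over 2-fold lower, against 7.44% of all.

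The scramble libraries give the levels behind these differences; a gap between the hairpins in the carriers is built into the choice of the words. Genes with GTCAACA alone had a median log2 ratio to scramble of -0.21 with shRNA-B and -0.06 with shRNA-D. Genes with TACTACA alone had -0.02 with shRNA-B and -0.16 with shRNA-D, and genes with neither word 0.02 and -0.03. These ratios share the scramble libraries and stand here as levels side by side.

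GTCAACA was the first word on the higher side in each of the 4 pairs taken alone, with carrier medians of 0.17, 0.18, 0.06 and 0.13 against -0.05, -0.07, -0.09 and -0.003 in the genes without it. TACTACA was the first word on the lower side in pairs 1 and 3, whereas the first was GCTACTA in pair 4 and CGGCGCC in pair 2. In pair 2 the carriers of TACTACA had a median of 0.003 against -0.06 in the other genes, so the shift had the opposite sign there. Carriers of either word had longer 3′ UTRs than other genes. Carriers of either word without the other were also described in 3 classes of 3′ UTR length, without a new ranking of words. In the short, middle and long class, 47.1%, 41.7% and 34.4% of genes with GTCAACA alone were higher. The shares with neither word were 6.49%, 9.39% and 11.1%. Of genes with TACTACA alone 55.6%, 33.8% and 23.0% were lower, against 11.7%, 13.2% and 14.8% with neither word. The short class held 34 genes with GTCAACA alone and 36 with TACTACA alone. Genes with neither word still included 940 that were higher and 1402 that were lower, of which 14 and 8 differed over 2-fold.

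**Figure D2:**
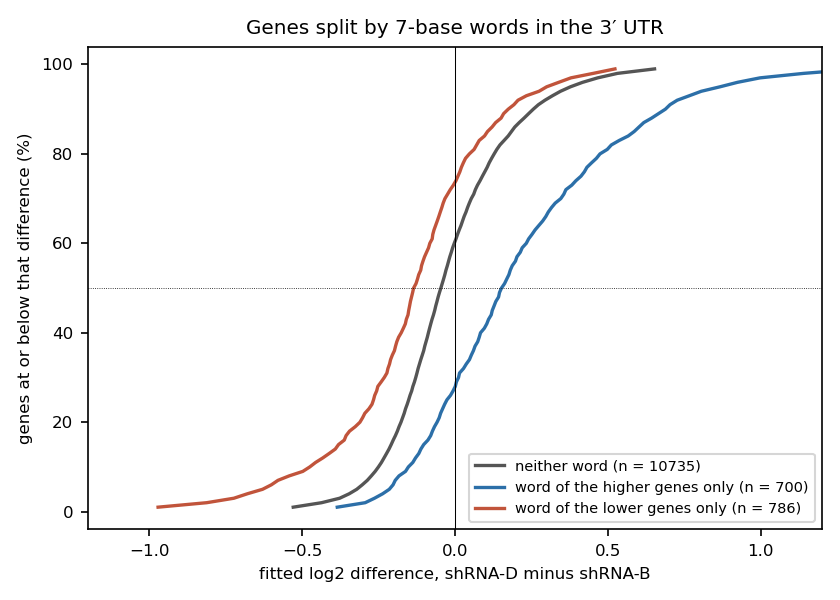
Cumulative share of searched genes (%) by fitted log2 difference, shRNA-D minus shRNA-B, on a horizontal axis from -1.2 to 1.2, for genes with GTCAACA alone (blue, n = 700), TACTACA alone (red, n = 786) or neither word (grey, n = 10735) in the 3′ UTR. The blue curve lies to the right of the grey curve and the red curve to the left around the middle of the distribution, with medians of 0.15, -0.14 and -0.05.

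Among genes with a symbol, a mean of at least 10 CPM, no overlap between the groups and 4 of 4 pairs in 1 direction, the 15 furthest apart on the higher side were led by CERK, the kinase that phosphorylates ceramide. CERK stood at 21.8, 24.2, 20.6 and 19.5 CPM in the shRNA-B libraries and at 79.3, 62.6, 63.9 and 78.9 CPM in the shRNA-D libraries, beside a scramble mean of 76.2 CPM. Every shRNA-D library was far above every shRNA-B library, and the log2 difference was 1.72 ± 0.11 (SE; edgeR, Benjamini-Hochberg adjusted p = 7.15e-05, as for all adjusted p values here). VAMP3, a SNARE of recycling endosomes, stood at 38.5, 42.9, 40 and 34.2 CPM with shRNA-B and 120, 105, 106 and 104 CPM with shRNA-D. Its difference was 1.48 ± 0.07 (adjusted p = 1.86e-08), and it carried neither word.

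FADS1, the delta-5 fatty acid desaturase, stood at 35.2, 77.0, 65.1 and 53.6 CPM with shRNA-B and 119, 163, 159 and 142 CPM with shRNA-D. The groups did not overlap, which was a condition for all genes of this set, and the difference was 1.38 ± 0.10 (adjusted p = 0.000168). FECH, the ferrochelatase that inserts iron into heme, stood at 15.4, 21.8, 20.2 and 19.2 CPM against 44.5, 51.2, 48.3 and 46.4 CPM, a difference of 1.32 ± 0.07 (adjusted p = 3.26e-08). SF3B3, a subunit of the spliceosome's SF3b complex and the most abundant of these genes, stood at 189, 252, 203 and 207 CPM against 499, 482, 430 and 491 CPM. Its difference was 1.17 ± 0.08 (adjusted p = 1.39e-06).

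The remaining genes of this group were FXYD6 (log2 difference 1.45) and ATP1B3 (1.25), which encode a regulator and a beta subunit of the sodium-potassium pump, the adhesion molecule ALCAM (1.40), PRXL2C (1.32), the ubiquitin-conjugating enzyme variant UBE2V2 (1.32), PTS of tetrahydrobiopterin synthesis (1.17), the casein kinase CSNK1G3 (1.14), the nucleotide kinase CMPK1 (1.12), CCDC6 (1.06) and TRAPPC13 of a Golgi trafficking complex (1.06). Of the 15, 11 carried GTCAACA, VAMP3, FXYD6 and CSNK1G3 carried neither word, and CMPK1 carried TACTACA. In all 15 the shRNA-D mean was nearer to scramble than the shRNA-B mean: log2 ratios to scramble ran from -0.23 to 0.31 with shRNA-D and from -1.83 to -0.97 with shRNA-B. UBE2V2 lost its call without pair 2 (adjusted p = 0.0815), and since UBE2V2 has processed copies in the genome, its estimated counts carry added uncertainty.

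On the lower side, by the same limits, the first genes were LAGE3, of the KEOPS complex that modifies tRNA, and PPIL1, a cyclophilin of the spliceosome. PPIL1 stood at 95.7, 93.9, 105 and 99.4 CPM with shRNA-B and 30.6, 36.3, 36.2 and 38.6 CPM with shRNA-D, beside a scramble mean of 86.9 CPM. The groups were far apart, with a difference of -1.48 ± 0.07 (adjusted p = 1.86e-08). LAGE3 stood at 27.5, 24.3, 23.6 and 28.7 CPM against 6.72, 8.35, 10.2 and 12.8 CPM. Its difference was also -1.48, with an SE of 0.17, and its call was lost without pair 2 (adjusted p = 0.0955).

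SPTLC1, a subunit of the serine palmitoyltransferase that opens sphingolipid synthesis, stood at 98.6, 89.5, 116 and 97.2 CPM with shRNA-B and 45.4, 47.4, 50 and 46.3 CPM with shRNA-D. Its difference was -1.08 ± 0.06 (adjusted p = 3.22e-07), so the 2 hairpins separated this enzyme and CERK in opposite directions. GJA1, the gap junction protein connexin 43, stood at 38.6, 44.5, 58.6 and 58.6 CPM against 15.5, 22.2, 24.3 and 19.8 CPM, a difference of -1.29 ± 0.08 (adjusted p = 7.77e-06); it too has a processed copy in the genome. ANLN, the actin-binding anillin of the cleavage furrow, stood at 260, 123, 232 and 178 CPM against 76.7, 72.9, 86.4 and 82.2 CPM. The shRNA-B libraries of ANLN varied widely and the shRNA-D libraries little, and its difference of -1.27 ± 0.19 lost its call without pair 3 (adjusted p = 0.148) or pair 4 (adjusted p = 0.0623).

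The other lower genes were stannin (SNN, -1.33), C6orf120 (-1.25), APIP of the methionine salvage pathway (-1.24), the phosphoinositide 3-kinase catalytic subunit PIK3CB (-1.16), the TGF-beta co-receptor TGFBR3 (-1.12), the kinase HIPK3 (-1.04), ARL6IP6 (-1.03), the small GTPase RAB12 (-1.01), SPRING1, a Golgi factor of SREBP processing (-1.01), and RP2 (-0.97). Of the 15, 7 carried TACTACA, namely LAGE3, PPIL1, C6orf120, TGFBR3, ARL6IP6, SPRING1 and RP2, and 8 carried neither word. In 14 the shRNA-B mean was nearer to scramble, with log2 ratios to scramble from -1.40 to -0.40 with shRNA-D and from -0.06 to 0.67 with shRNA-B over the 15; HIPK3 was the exception. HIPK3 and RP2 each lost the call when pair 2 (adjusted p = 0.0543 and 0.105) or pair 3 (0.223 and 0.0649) was left out, and HIPK3 also without pair 4 (0.0651). Without the replicate block, ARL6IP6 was the only one of these 30 genes to lose its call (adjusted p = 0.105).

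**Figure D3:**
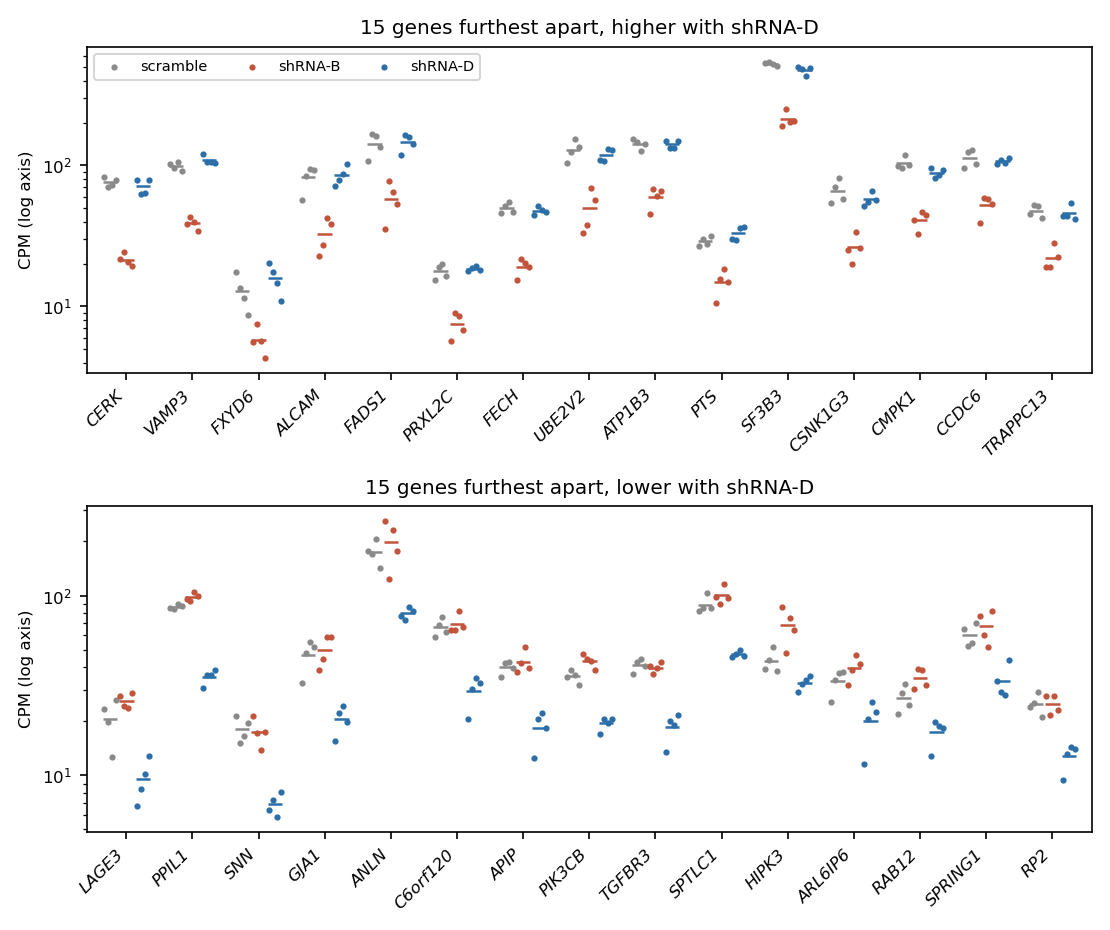
Levels in CPM (log axis) of the 15 genes per direction that were furthest apart between the hairpins among those with a symbol, a mean over 10 CPM and groups that did not overlap, each point 1 library and each bar the group mean, with scramble in grey, shRNA-B in red and shRNA-D in blue. In the upper panel the shRNA-D points lie with scramble and above shRNA-B, and in the lower panel the shRNA-B points lie with or above scramble and shRNA-D lies below.

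Lists of genes were then described by how many tested members were called, beside the background of 8.41% higher and 16.0% lower, and by their median log2 difference, beside 0.002 over all tested genes and -0.07 over genes that reached 10 CPM. Without the replicate block no list held more than 2 called members in a direction, so the list counts rest on the pairing throughout.

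**Figure D4:**
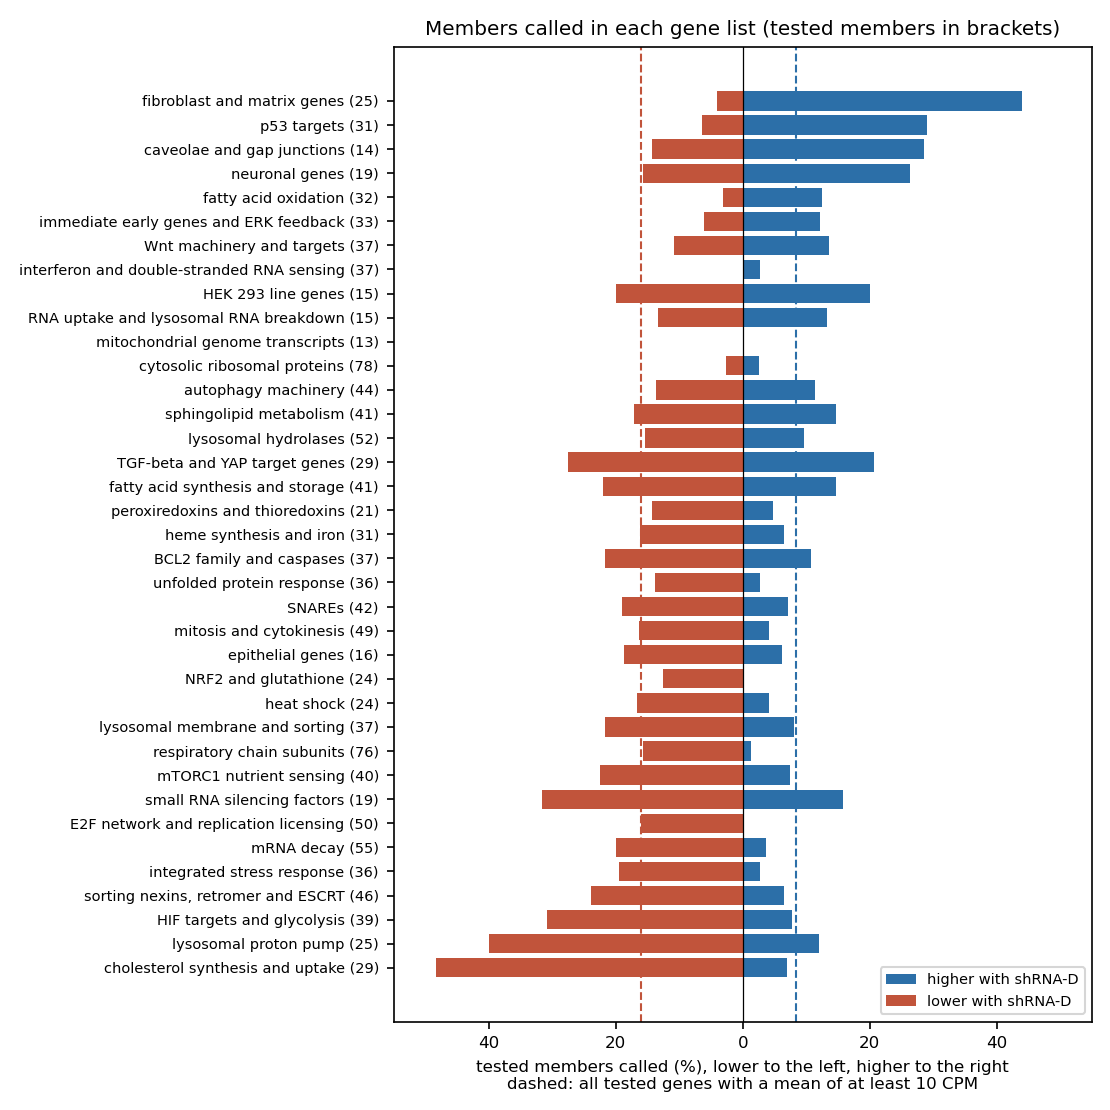
Share of tested members called lower (left, red) or higher (right, blue) with shRNA-D in each of 37 gene lists, tested members in brackets, ordered by the higher minus the lower share; dashed lines mark the shares among genes that reached a mean of 10 CPM. The 3 lists with under 10 tested members are left out. Fibroblast and matrix genes extend furthest to the right, at 44%, and cholesterol genes furthest to the left, at 48.3%.

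By the share of members called, the matrix list stood furthest on the higher side. Of 25 tested fibroblast and matrix genes, 11 were higher and 1 lower with shRNA-D (44% and 4%), with a median of 0.22 that was positive in each of the 4 pairs (0.30, 0.21, 0.31 and 0.21). MMP2, a secreted gelatinase, stood at 1.28, 1.14, 0.792 and 0.596 CPM with shRNA-B and 10.8, 7.02, 6.54 and 3.23 CPM with shRNA-D, beside a scramble mean of 6.13 CPM. This is a low level, but every shRNA-D library was above every shRNA-B library, and the log2 difference was 2.80 ± 0.13 (adjusted p = 1.86e-08). The microfibril protein FBN1 stood at 15.7, 14.9, 14.4 and 14 CPM against 34.7, 28.1, 26.9 and 24.7 CPM (0.95 ± 0.07, adjusted p = 1.39e-06), and smooth muscle actin ACTA2 was 0.78 higher.

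The growth factor receptor PDGFRA (0.63), the lysyl oxidases LOXL2 (0.41), LOXL1 (0.38) and LOX (0.21), fibronectin FN1 (0.33), the collagen COL5A1 (0.27) and the protease inhibitors TIMP3 (0.27) and TIMP1 (0.23) were also higher. The basement membrane collagen COL4A2 was lower (-0.51). MMP2, FBN1 and LOX carried GTCAACA and the other 8 higher genes did not. Beside scramble, the median log2 ratio of the list was -0.15 for shRNA-B and 0.08 for shRNA-D. The number of higher members was 6 without pair 4, 7 without pair 1 and 14 without pair 2, and the summed level of all 30 listed genes was 533 to 885 CPM with shRNA-B and 617 to 909 CPM with shRNA-D.

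Targets of the tumour suppressor p53, whose protein HEK 293T cells hold bound to large T antigen, were the next list on the higher side by that share: 9 of 31 were higher and 2 lower (29% and 6.45%), with a median of 0.11. The cell cycle inhibitor CDKN1A stood at 57.7, 37.9, 33.3 and 41.7 CPM with shRNA-B and 69.9, 51.7, 50.4 and 74.0 CPM with shRNA-D. The groups overlapped across pairs, while within each pair shRNA-D was higher (0.54 ± 0.08, adjusted p = 0.00199). Also higher were TP53INP1 (0.48), the death receptor TNFRSF10B (0.38), ZMAT3 (0.33), SPATA18 (0.30), GADD45A (0.25), the p53 ligase MDM2 (0.23), the repair factor DDB2 (0.21) and TP53I3 (0.43), which lost its call without pair 4 (adjusted p = 0.0644). Cyclin G1 (CCNG1, -0.76) and SESN1 (-0.28) were lower. None of the 9 higher genes carried GTCAACA. Pair 4 weighed heavily: without it 3 members were higher and the median was 0.02, whereas without pair 2 it was 12 members.

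Among genes of cell death, BMF, a BH3-only activator of apoptosis, stood at 5.24, 4.95, 3.39 and 4.07 CPM with shRNA-B and 10.9, 8.82, 8.14 and 7.84 CPM with shRNA-D (1.02 ± 0.09, adjusted p = 9.38e-06). The mitophagy receptor BNIP3L (0.72) and the survival factor BCL2 (0.49) were higher as well. The 8 lower members of this list of 37 included BNIP3 (-0.38), the caspase inhibitor XIAP (-0.39) and BAK1 (-0.31), so activators and inhibitors stood on both sides. BMF and BCL2 carried GTCAACA and XIAP carried TACTACA, while 2 higher and 6 lower members carried neither word. The list median was -0.02. The lower count was 3 without pair 1 or pair 3 and 5 without pair 4.

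By the share of members called, the cholesterol list stood furthest on the lower side. Of 29 tested genes of cholesterol synthesis and uptake, 14 were lower and 2 higher with shRNA-D (48.3% and 6.90%), with a median of -0.14. The list median was -0.20, -0.24, -0.18 and -0.08 in pairs 1 to 4, beside -0.07, -0.09, -0.11 and -0.01 over genes that reached 10 CPM. MSMO1, the sterol-4-alpha-methyl oxidase, stood at 87.2, 115, 141 and 67.1 CPM with shRNA-B and 52.6, 88.1, 87.5 and 53 CPM with shRNA-D. The pairs differed more from each other than the hairpins did, and within each pair shRNA-D was lower (-0.53 ± 0.07, adjusted p = 0.000466). Squalene epoxidase SQLE (-0.37), lanosterol demethylase CYP51A1 (-0.36), the sterol sensors INSIG2 (-0.35) and INSIG1 (-0.33), NSDHL (-0.30), HSD17B7 (-0.30), DHCR7 (-0.27), FDPS (-0.26), IDI1 (-0.25), ACAT2 (-0.24), the SREBP protease MBTPS2 (-0.21) and EBP (-0.20) were among the lower genes.

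Lanosterol synthase LSS (0.44) and mevalonate kinase MVK (0.43) were higher, and both carried GTCAACA; of the 14 lower genes, INSIG1 and INSIG2 carried TACTACA. SPRING1, named above among the genes furthest apart, acts in the same pathway and was lower too. Beside scramble, the list median was 0.08 with shRNA-B and -0.06 with shRNA-D. Without pair 1 the number of lower members was 7 and without pair 3 it was 9.

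Fatty acid genes were divided. Of 41 tested genes of fatty acid synthesis and storage, 6 were higher and 9 lower (14.6% and 22.0%; median -0.05). The stearoyl-CoA desaturase SCD stood at 949, 1599, 1416 and 1244 CPM with shRNA-B and 652, 1118, 1068 and 1042 CPM with shRNA-D (-0.43 ± 0.06, adjusted p = 0.000534), and fatty acid synthase FASN (-0.31), the acyl-CoA synthetase ACSL3 (-0.36) and DGAT1 of triglyceride synthesis (-0.44) were also lower. FADS1 stood on the other side, with LPCAT1 (0.36), SCD5 (0.30) and LPIN1 (0.29), and without pair 4 the higher count was 3. Of 32 genes of fatty acid oxidation, 4 were higher and 1 lower, the higher ones including the coactivator PPARGC1A (0.73), the dehydrogenase ACAD11 (0.39) and the trifunctional protein subunit HADHB (0.34).

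Sphingolipid genes held the widest differences of the lipid lists in both directions, with 6 higher and 7 lower of 41 tested (14.6% and 17.1%) and a median of -0.01. Beside CERK, GLTP, which transfers glycolipids between membranes, was higher at 30.4, 30.2, 27.9 and 33.0 CPM with shRNA-D against 13.8, 20, 16.3 and 17.4 CPM with shRNA-B (0.86 ± 0.08, adjusted p = 6.25e-05). Both groups lay below the scramble mean of 43.8 CPM. The small serine palmitoyltransferase subunits SPTSSA (0.79) and SPTSSB (0.99, near 1 CPM), sphingomyelin synthase SGMS2 (0.65) and acid ceramidase ASAH1 (0.22) were higher. SPTLC1 was lower, with galactosylceramidase GALC (-0.58), the sphingosine-1-phosphate phosphatase SGPP1 (-0.54), UGT8 (-0.45), SGPL1 (-0.26), UGCG (-0.22) and CERS2 (-0.22). The lower count was 4 without pair 1 or pair 3. CERK and SPTSSA carried GTCAACA alone, SGMS2 carried both words, and GALC and UGCG carried TACTACA.

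The lysosome, where SIDT2 acts, is acidified by the vacuolar proton pump. Of 25 tested genes of this pump and its assembly, 10 were lower and 3 higher with shRNA-D (40% and 12%; median -0.17). The higher side was led by ATP6V1C1, a subunit of the soluble V1 sector, at 44.3, 37.2, 49.9 and 53.4 CPM with shRNA-B and 87.7, 67.8, 74.7 and 85.9 CPM with shRNA-D (0.78 ± 0.07, adjusted p = 1.06e-05). The groups of ATP6V1C1 did not overlap, and its shRNA-D level was beside the scramble mean of 73.7 CPM. The V1 subunits ATP6V1D (-0.32), ATP6V1B2 (-0.30), ATP6V1G1 (-0.28) and ATP6V1E1 (-0.23), the membrane subunits ATP6V0D1 (-0.30), ATP6V0A2, ATP6V0A1 and ATP6V0B (each -0.20), the accessory protein ATP6AP2 (-0.28) and WDR7 (-0.35) were lower.

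ATP6V1C1 and ATP6V1C2 (0.39) carried GTCAACA and ATP6AP2 carried TACTACA; ROGDI (0.31), a factor of pump assembly, and the other 9 lower genes carried neither. Without pair 3 the number of lower members was 4 (of 25), in a setting with 893 lower genes in all against 1821 with every pair. Without pair 1 the number of lower members was 6 and the higher count was 1. The list median beside scramble was 0.10 with shRNA-B and 0.02 with shRNA-D.

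Of 52 lysosomal hydrolases, 5 were higher and 8 lower (9.62% and 15.4%; median -0.03), close to the background. The widest apart was the fucosidase FUCA1, at 11.9, 16.6, 13.6 and 13.7 CPM with shRNA-B and 25.5, 27.3, 26.4 and 25.4 CPM with shRNA-D (0.92 ± 0.07, adjusted p = 2.47e-06), followed by arylsulfatase B (ARSB, 0.79) and AGA (0.46). The palmitoyl thioesterase PPT1 (-0.42) was among the lower genes. Of 37 lysosomal membrane and sorting genes, 3 were higher and 8 lower, among them the chloride channel TTYH3 (0.51), the mannose-6-phosphate receptor M6PR (-0.35), the sialic acid exporter SLC17A5 (-0.37) and the calcium channel MCOLN1 (-0.33). Without pair 1 the hydrolases had 3 higher, without pair 4 also 3 and without pair 2 as many as 10. The membrane list had 4 lower without pair 1 or pair 3 and 5 without pair 4, with 1 higher without pair 1 or pair 4.

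Of 15 tested genes of RNA uptake and lysosomal RNA breakdown, 2 were higher and 2 lower, all by little: TMEM192 (0.21) and the exonuclease PLD3 (0.20) against the ribonuclease inhibitor RNH1 (-0.23) and ACP2 (-0.21). Each of these 4 calls was lost without pair 1, with adjusted p values of 0.291, 0.209, 0.0590 and 0.162, and also without pair 3 or pair 4. The list, which holds SIDT2, had a median of -0.0006, whose sign differed under other scalings.

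Nutrient sensing at the lysosome by mTORC1 had 9 of 40 tested genes lower and 3 higher (22.5% and 7.50%; median -0.12). LAMTOR1, the anchor that holds the Ragulator complex on the lysosome, stood at 56.3, 46.5, 44.2 and 46.7 CPM with shRNA-B and 30.5, 26.9, 27.9 and 32.4 CPM with shRNA-D (-0.72 ± 0.07, adjusted p = 1.19e-05). The Rag GTPases RRAGC (-0.48), RRAGB (-0.29) and RRAGD (-0.23) and the Ragulator subunits LAMTOR3 (-0.44) and LAMTOR5 (-0.21) were lower as well. So were SESN1 (-0.28), NPRL3 (-0.22) and NPRL2 (-0.20). The folliculin partner FNIP2 (0.44), MLST8 (0.22) and TSC2 (0.21) were higher. Without pair 1 these counts were 3 lower and 1 higher, without pair 3 they were 4 and 1, and without pair 4 the higher count was 1.

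In endosomal traffic, 11 of 46 sorting nexin, retromer and ESCRT genes were lower and 3 higher (23.9% and 6.52%; median -0.08). The ESCRT-III subunit CHMP7 stood at 47.9, 44.9, 41.0 and 39.1 CPM with shRNA-B and 24.9, 25.1, 25.5 and 29.1 CPM with shRNA-D (-0.72 ± 0.08, adjusted p = 0.000197). CHMP2B (-0.80), the retromer subunits VPS35 (-0.56) and VPS29 (-0.38) and VTA1 (-0.48) were lower, while the cargo adaptors STAM2 (0.61) and STAM (0.39) were higher. CHMP7, CHMP2B, VTA1 and VPS37A carried TACTACA and both STAM genes carried GTCAACA, but so did VPS29, which was lower. Without pair 1, and without pair 3, the number of lower members was 5; without pair 2 it was 16, with 6 higher.

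Of 42 SNAREs, 3 were higher and 8 lower; VAMP3 stood alone in size, followed by the fusion factor NAPG (-0.44). Of 44 autophagy genes, 5 were higher and 6 lower, with UVRAG (0.47), the receptor OPTN (0.38) and WIPI1 (0.36) against the WIPI family member WDR45B (-0.51) and the kinase subunit PIK3R4 (-0.31). Lower SNAREs numbered 2 without pair 1 or pair 3, and higher SNAREs 1 without pair 1 or pair 4. Autophagy counts were 3 higher and 3 lower without pair 1 and 8 and 11 without pair 2. In caveolae and gap junctions, CAV2 (-1.04 ± 0.09) stood with GJA1 on the lower side, while CAV1 (0.43), the pannexins PANX1 (0.59) and PANX2 (0.87) and GJA3 (0.26) were higher, of 14 tested genes. The partner caveolins were therefore separated in opposite directions, CAV2 at 3.53 to 5.16 CPM with shRNA-D against 7.67 to 10.8 CPM with shRNA-B. CAV2 carried TACTACA, and GJA1 and the 4 higher genes of this list carried neither word.

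**Figure D5:**
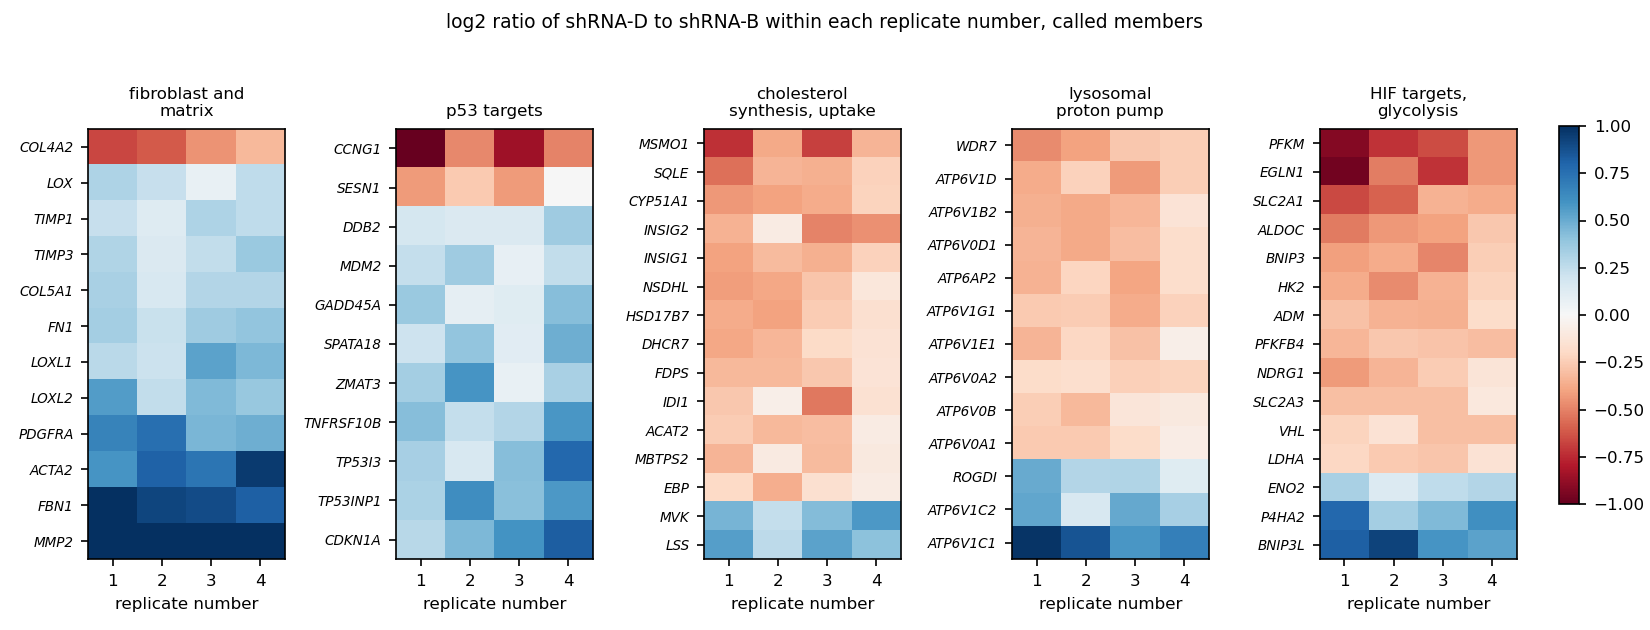
Log2 ratio of shRNA-D to shRNA-B within each of the 4 numbered pairs (colour, cut at 1 and -1) for called members of 5 gene lists. Members of the matrix and p53 lists are mostly blue (higher with shRNA-D) and those of the cholesterol, proton pump and hypoxia lists mostly red (lower). The whole-list median was smallest in pair 4 for cholesterol genes (-0.08) and in pair 3 for p53 targets (0.03).

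Targets of the hypoxia-inducible factor and genes of glycolysis had 12 of 39 members lower and 3 higher (30.8% and 7.69%), with a median of -0.11. The list median was -0.14, -0.20, -0.16 and -0.06 in pairs 1 to 4. Genes that reached 10 CPM had -0.07, -0.09, -0.11 and -0.01, so a negative sign in each pair was not particular to the list. Phosphofructokinase PFKM stood at 104, 126, 115 and 96.8 CPM with shRNA-B and 55, 76.2, 73.4 and 71.8 CPM with shRNA-D (-0.68 ± 0.07, adjusted p = 7.94e-05). The oxygen sensor EGLN1 (-0.66), the glucose transporters SLC2A1 (-0.49) and SLC2A3 (-0.25), aldolase ALDOC (-0.41), BNIP3 (-0.38), hexokinase HK2 (-0.35) and lactate dehydrogenase LDHA (-0.22) were lower, and BNIP3L (0.72), the collagen prolyl hydroxylase P4HA2 (0.55) and enolase ENO2 (0.25) higher. Of the lower genes PFKM carried TACTACA, and of the higher ones P4HA2 carried GTCAACA. The number of lower members was 8 without pair 1 or pair 3.

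Stress responses of the cytosol and the endoplasmic reticulum had shares of lower members near the background of 16.0%. The integrated stress response had 7 of 36 lower (19.4%) and 1 higher, with CHAC1 (-0.58) and the folate enzyme MTHFD2 (-0.32) against GDF15 (0.79, near 1 CPM). The unfolded protein response had 5 of 36 lower (13.9%) and 1 higher, with the lectin chaperone CALR at -0.43 ± 0.06 (adjusted p = 0.000418), and heat shock genes had 4 of 24 lower (16.7%) and 1 higher. Of 24 NRF2 and glutathione genes 3 were lower (12.5%), among them GSR (-0.32), and 0 higher in edgeR's test, with 0 higher also at an unadjusted p under 0.05 and in DESeq2 or limma voom. The list of peroxiredoxins, thioredoxins and related genes had 3 of 21 lower (14.3%), among them SOD2 (-0.33), and 1 higher. Of 31 heme and iron genes, 2 were higher and 5 lower; FECH stood at one end and the iron transporter SLC11A2 (-0.44) at the other. The lower counts were smaller without pair 1 (4, 2, 2 and 1 for the integrated stress, unfolded protein, heat shock and heme lists) and without pair 3 (2, 2, 1 and 1). Without pair 2 the unfolded protein response had 8 lower and the NRF2 list 5 lower and 1 higher, while the integrated stress list had 3 higher and heat shock genes 4.

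In mitochondria, 12 of 76 respiratory chain subunits were lower (15.8%), close to the background of 16.0%. Only 1 was higher (1.32%, against 8.41%). The list median was -0.10, beside -0.07 over genes that reached 10 CPM. The lower subunits were led by NDUFS4 (-0.56) and NDUFB10 (-0.37) of complex I. None of the 13 transcripts of the mitochondrial genome was called by edgeR; 4 of them were lower at an unadjusted p under 0.05, DESeq2 called 1 and limma voom 0. Without pair 4, edgeR called 5 of the 13 lower; the list median was 0.05 in pair 4 and -0.11, -0.17 and -0.16 in pairs 1 to 3. The number of lower respiratory chain subunits was 3 without pair 1 and 4 without pair 3.

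Cell cycle genes were called lower at close to the background share. Of 50 E2F network and replication licensing genes 8 were lower and 0 higher in edgeR's test (16% lower; 1 higher at an unadjusted p under 0.05, 0 higher in DESeq2 and limma voom, 3 higher in edgeR without pair 2), including the helicase subunit MCM4 (-0.57), CDC6 (-0.46), the ribonucleotide reductase subunit RRM2 (-0.40) and RB1 (-0.73). Of 49 mitosis and cytokinesis genes, 8 were lower and 2 higher. PRC1, which bundles microtubules of the central spindle, stood at 132, 173, 180 and 136 CPM with shRNA-B and 239, 264, 273 and 243 CPM with shRNA-D (0.73 ± 0.07, adjusted p = 9.38e-06), and the checkpoint protein MAD2L1 was 0.69 higher. ANLN, AURKA (-0.50), cyclin A2 (CCNA2, -0.43) and KIF4A (-0.42) were lower, so factors of the same division step stood on opposite sides. PRC1 and MAD2L1 carried GTCAACA, and the 8 lower mitosis genes carried neither word. Of the lower E2F genes, MCM4 and CDC6 carried TACTACA. Without pair 1 the lower counts of both lists were 5, without pair 3 they were 4, and without pair 2 mitosis genes had 14 lower.

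The machinery of small RNA silencing itself differed: 3 of 19 genes were higher and 6 lower (15.8% and 31.6%; median -0.06). AGO4 stood at 17.4, 26.8, 24.7 and 22.2 CPM with shRNA-B and 28.8, 39.0, 36.8 and 33.6 CPM with shRNA-D (0.61 ± 0.06, adjusted p = 2.19e-05), and AGO1 (0.41) and the Argonaute partner TNRC6C (0.34) were higher. AGO2 (-0.23), the slicing Argonaute, AGO3 (-0.34), TNRC6B (-0.25), the Dicer partners TARBP2 (-0.32) and PRKRA (-0.21) and TRIM71 (-0.43) were lower. The 4 Argonaute genes thus stood 2 on each side; AGO4 carried GTCAACA, TRIM71 carried TACTACA, AGO3 carried both, and TNRC6C, which was higher, carried TACTACA. The lower count was 3 without pair 1 or pair 3. Of 55 mRNA decay genes 11 were lower and 2 higher, led by TOB2 (-0.44), the exosome subunit EXOSC4 (-0.40) and the deadenylase CNOT7 (-0.38); without pair 1 there were 5 lower and without pair 3 there were 4. Ribosomal protein genes, whose estimated counts are shared with many processed copies, had 2 higher and 2 lower of 78. Without pair 2 there were 14 higher, without pair 1 there were 0 in either direction, and without pair 4 there were 0 higher and 4 lower.

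Of 37 genes of interferon and double-stranded RNA sensing, 1 was higher and 0 were lower in edgeR's test, and 0 were lower in DESeq2 or limma voom (2 at an unadjusted p under 0.05); without pair 3 edgeR called 1 lower, and without pair 1 it called 2 higher. Immediate early genes had 4 of 33 higher, EGR1 (0.68), JUND (0.52), KLF10 (0.36) and FOS (0.34), and MYC (-0.26) and SPRY1 (-0.32) lower. The call of KLF10 was lost without pair 1 (adjusted p = 0.0503) or pair 2 (adjusted p = 0.0890), and that of MYC without pair 1 (adjusted p = 0.0938), where 2 immediate early genes were higher.

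TGF-beta and YAP target genes had 6 of 29 higher and 8 lower (20.7% and 27.6%; median -0.02). The coactivators WWTR1 (-0.66) and YAP1 (-0.27), TGFBR3 and CRIM1 (-0.37) were lower, and the ligands TGFB1 (0.40) and TGFB2 (0.61) and the matricellular CCN1 (0.48) higher. The counts were 3 higher and 4 lower without pair 1, 2 higher without pair 4 and 3 lower without pair 3. Wnt genes had 5 of 37 higher, with the secreted DKK3 (0.86) and the receptor LGR5 (0.65), and 4 lower, with the feedback factor NKD2 (-0.58). The higher count was 3 without pair 1 or pair 3 and 10 without pair 2, and the lower count 2 without pair 4.

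Among markers of other lineages, 5 of 19 neuronal genes were higher and 3 lower, MAP2 at 1.0 ± 0.18 and SYP at -0.67 ± 0.06. MAP2 was scarce, with overlapping groups and means of 1.04 CPM with shRNA-B and 2.03 CPM with shRNA-D. Of 16 epithelial genes, 1 was higher (KRT8, 0.41) and 3 lower, led by E-cadherin (CDH1, -0.68). The summed level was 596 to 675 CPM with shRNA-B and 627 to 715 CPM with shRNA-D for neuronal genes, and 504 to 635 and 520 to 604 CPM for epithelial genes. Higher neuronal genes numbered 3 without pair 1 or pair 3 and 2 without pair 4. Of 15 HEK 293 line genes, 3 were higher and 3 lower, and without pair 3 there was 1 lower. The 5 leukocyte, 3 hepatocyte and 2 endothelial genes that were tested had 0 called in edgeR's test, 0 at an unadjusted p under 0.05 and 0 in DESeq2 and limma voom. In bulk RNA, fewer cells of a type and less RNA per cell cannot be told apart, and the part of any such shift in the list results was not tested.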

How the data were processed

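The authors deposited 1 table of estimated counts for 85298 Ensembl identifiers in 12 libraries; fastp and kallisto are named per the submitters' processing notes, while tool versions, genome build and annotation were not given in the sources used here. Estimated counts divide reads among transcripts that share sequence, so genes with copies are less certain, and 1064 tested identifiers had values equal to those of another. Symbols were found for 60443 identifiers and 21770 tested ones. Members and lists were chosen with earlier results of these data known.

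Counts of the 8 knockdown libraries were rounded, filtered with filterByExpr, scaled by TMM and fitted in edgeR 4.0.16 (R 4.3.3) with hairpin and replicate number as terms (quasi-likelihood, robust); the call was an adjusted p (Benjamini-Hochberg, 25042 genes) under 0.05. Scramble libraries were put on the same CPM scale. Fold ratios within pairs used a pseudocount of 0.1 CPM. The replicate numbers paired the libraries: deviations from group means correlated with r = 0.644 to 0.841 for the same number and -0.494 to 0.252 for others, over 12092 genes. What same-numbered libraries share is not stated. The common biological coefficient of variation was 11.65%, and counting error alone gave SIDT2 3.71% to 5.03% per library. Chi-square per degree of freedom between libraries of a group was 26.9 to 144, so no library was counted as a duplicate.

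Named genes were SIDT2, SIDT1, RNASET2, LAMP1 and LAMP2; up to 15 per direction by fold change with a symbol, a mean of at least 10 CPM, no overlap and 4 of 4 pairs; up to 4 called members per list by p; and further called list members. The 40 lists held 1331 genes, of which 1271 were tested. Sequences and 3′ UTRs came from GENCODE release 29, searched on the sense strand. A check of gene length and GC content was void, since 58.4% of tested genes had values. The fit was tested on simulated data. Some genes of the lists are counted but not reported here by name, and were left out of the check for single libraries that stand apart. Alternatives were no block, all 12 libraries, RLE and upper-quartile scaling, DESeq2 1.42.0, limma voom 3.58.1, other filters and leaving out each pair.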

Additional observations from a re-analysis of the deposited data

Results flagged for a closer look

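Of the 320 groups of 4 libraries that were tested, 24 had 1 library whose gap to the nearest of the others exceeded Dixon's 95% critical value. Chance flags about 1 in 20 such groups.

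The widest gaps were in lineage genes of replicate 4. NEFM stood at 120 CPM in shRNA-B replicate 4 (5.68 to 20.95 in the others) and 87.2 CPM in shRNA-D replicate 4 (4.41 to 14.99), LGR5 at 11.6 CPM (3.40 to 4.24) and 16.2 CPM (5.64 to 6.81), and KRT8 at 7.77 CPM in shRNA-D replicate 4 (41.25 to 42.3). These gaps went with the replicate number in every group. KRT8 was also low in replicate 4 of shRNA-B (6.18 CPM) and scramble (7.90 CPM). In scramble replicate 4, NEFM (106 CPM) and LGR5 (15.2 CPM) were high as well. CHMP7 stood at 29.1 CPM in shRNA-D replicate 4. In replicate 1 of shRNA-D, MAP2 was at 4.82 CPM, SCD at 652 CPM, E2F5 at 25.1 CPM, SLC11A2 at 34.2 CPM, RNH1 at 30.3 CPM and VAMP3 at 119.6 CPM. In replicate 1 of shRNA-B, SIDT1 was at 1.05 CPM, TMEM192 at 32.7 CPM, RRAGC at 46.4 CPM and SYP at 20.3 CPM. LAMP2 (113.7 CPM) and PANX2 (7.27 CPM) stood apart in shRNA-B replicate 2, and MVK (16.9 CPM) in shRNA-D replicate 2. In shRNA-B replicate 3 these were C6orf120 (81.8 CPM), GLRX (10.9 CPM), BAG3 (34.3 CPM) and HSPD1 (2083 CPM), and in shRNA-D replicate 3 TRAPPC13 (53.7 CPM).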

How the results depend on the processing

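Without the replicate block, 64 genes were higher and 44 lower with shRNA-D, 20 and 14 of them over 2-fold, and 41 of 159 called named genes kept the call. Upper-quartile scaling, which moved the median of all genes to 0.05, gave 1161 lower genes, 14 over 2-fold, and turned RNASET2 (0.00143) and LAMP1 (0.0301). At a mean of at least 1 CPM 53 and 12 genes were over 2-fold and LAMP1 was 0.0217; with no filter these counts were 190 and 73, and DESeq2 gave 55 over 2-fold higher. Leaving out 1 pair gave 887 to 2152 higher and 893 to 2394 lower genes, 89 to 144 and 25 to 46 over 2-fold, and log2 values of -0.0898 to 0.116 for SIDT2, -0.0848 to 0.00887 for RNASET2 and -0.0601 to 0.0426 for LAMP1. SIDT2 was negative without replicate 3 (-0.0898) and replicate 4 (-0.0284), and RNASET2 and LAMP1 were positive without replicate 2. The following counts were chosen after seeing the data: searched genes held 36 and 15 over 2-fold, and those with neither word 940 higher genes, with 14 and 8 over 2-fold. Some of these settings hold fewer genes or libraries, and the cause of the changes was not tested. No called named gene changed sign in any setting run. The shift of GTCAACA carriers, 0.18, lay between 0.17 and 0.20, and that of TACTACA carriers, -0.08, between -0.12 and -0.06. List medians changed sign in 9 of 40 lists under upper-quartile scaling and in 7 of 39 at 1 CPM, among them hydrolases and sphingolipid genes, and in none of the matrix, p53, cholesterol, proton pump or hypoxia lists. Depth limits genes near 1 CPM.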
